A study of Homo sapiens with 6 samples.

Results

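The genes of the cytosolic ribosome were followed in RNA-seq of Hep3B, an established human hepatocellular carcinoma cell line. Genes were taken when the table's identifier was RPL or RPS followed by a digit, or was RPLP0, RPLP1, RPLP2 or RPSA. The 10 genes of the RPS6K kinases and RPS19BP1, which encodes a binding partner of a ribosomal protein, were left out, which gave 87 of 16720 genes. They comprised 46 genes of the large subunit (60S), 31 genes of the small subunit (40S), 7 paralogues that resemble a subunit gene (RPL3L, RPL7L1, RPL22L1, RPL26L1, RPL36AL, RPL39L and RPS27L) and 3 read-through identifiers that join a ribosomal protein gene to its neighbour (RPL17-C18orf32, RPL36A-HNRNPH2 and RPS10-NUDT3). FAU and RACK1 also encode proteins of the ribosome but carry other names, and they are described apart from the 87 genes.

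The control group (sgControl, labelled wild type) held 3 libraries of Hep3B cells with a control guide. The other group (sgRFX6) held 3 libraries of Hep3B cells in which the transcription factor gene RFX6 had been knocked out with CRISPR/Cas9, and its columns name guide sg3. Per the study's methods, guide and Cas9 were delivered by a lentivirus (lentiCRISPRv2), infected cells were selected with puromycin, and knockout cells were expanded from single-cell clones whose number is not stated, so a difference between the groups cannot be told apart from a difference between clones. The labels number the libraries but do not say that they came from separate cultures, and p-values measure only the spread between these libraries.

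Each cytosolic ribosome holds 1 copy of nearly every ribosomal protein, together with the ribosomal RNAs, and the cell makes these proteins in matched amounts. Many of their mRNAs begin with a C followed by a run of pyrimidines, the 5' terminal oligopyrimidine (TOP) tract, through which LARP1 and mTORC1 set how much they are translated. In the liver when it grows, as in growing tissues generally, ribosome production follows growth signals such as MYC. Transcripts measured in bulk RNA do not report the number of ribosomes or the rate of translation, and in bulk RNA fewer cells of a type and less RNA per cell cannot be told apart.

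RefSeq (GRCh38.p14) listed a promoter for 69 of the 87 genes. A TOP start, here a C followed by at least 4 pyrimidines at a listed start site, was found in 48 of these 69 (69.6%), against 7.39% of the 9593 tested genes with a listed promoter and 5.14% of all 27305 genes listed. The tract was between 5 and 19 bases long, with a median of 8. The following stretches run from 45 bases before the start to 20 bases from it, 5' to 3', with the TOP tract in capitals. They are shown for the genes with the lowest log2 fold changes, RPS18, RPL4 and RPL7A, for the stalk genes RPLP0 and RPLP2, for 4 genes of chromosomes 11 and X (RPS3, RPL39, RPL36A and RPS4X) and for the paralogue RPL22L1. RPL4 and RPS4X had no TOP tract at the listed start and are therefore all in lower case.
RPS18 (chr6:33272030-33272094, plus strand): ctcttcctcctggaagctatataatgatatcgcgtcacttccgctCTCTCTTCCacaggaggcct
RPL7A (chr9:133348173-133348237, plus strand): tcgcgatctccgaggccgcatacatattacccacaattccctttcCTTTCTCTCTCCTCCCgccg
RPL4 (chr15:66504836-66504900, minus strand): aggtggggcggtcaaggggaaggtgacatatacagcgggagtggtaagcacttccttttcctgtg
RPLP0 (chr12:120201092-120201156, minus strand): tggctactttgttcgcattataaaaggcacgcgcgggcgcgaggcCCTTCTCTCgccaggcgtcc
RPS3 (chr11:75399473-75399537, plus strand): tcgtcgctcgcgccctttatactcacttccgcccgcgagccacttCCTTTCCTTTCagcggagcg
RPLP2 (chr11:809922-809986, plus strand): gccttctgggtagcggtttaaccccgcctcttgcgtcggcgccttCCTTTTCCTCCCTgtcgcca
RPL36A (chrX:101390966-101391030, plus strand): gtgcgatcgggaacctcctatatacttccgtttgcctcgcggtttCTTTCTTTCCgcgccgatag
RPL39 (chrX:119791611-119791675, minus strand): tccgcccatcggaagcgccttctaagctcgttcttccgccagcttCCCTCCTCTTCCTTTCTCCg
RPS4X (chrX:72277229-72277293, minus strand): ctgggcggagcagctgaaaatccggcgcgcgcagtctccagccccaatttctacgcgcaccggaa
RPL22L1 (chr3:170870176-170870240, minus strand): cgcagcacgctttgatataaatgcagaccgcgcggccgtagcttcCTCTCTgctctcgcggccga

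The other letters searched for, on both strands of the 300 bases around the start, did not set these genes apart as a group in 1 direction. The GABP motif CCGGAAG stood in 34.8% of the 69 promoters and in 22.1% of those of the tested genes. The YY1 motif AAGATGG stood in 13% and 9.43%, and the TATA box TATAAA in 10.1% and 8.4%. The SP1 motif GGGCGG stood in 58.0% and 76.6%, the MYC E-box CACGTG in 7.25% and 12.8%, and GTTGCC, one arm of the X-box that RFX factors bind, in 11.6% and 17.0%. These are matches of letters within a window and not sites of binding.

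The libraries held between 16730374 and 25070770 counts, at which 3 counts correspond to between 0.121 and 0.188 CPM (counts scaled to library size, with edgeR's TMM factors). RFX6 was counted 117, 144 and 170 times in sgControl and 69, 59 and 77 times in sgRFX6, log2 fold change -0.82 (edgeR's quasi-likelihood test, adjusted p = 0.142). Libraries of 1 group differed with the GC content of the transcripts. Across genes, the Spearman correlation of a library's deviation from its group mean with GC content was -0.56, 0.40 and 0.05 in sgControl 1 to 3 and 0.64, 0.72 and -0.84 in sgRFX6 1 to 3. Among the ribosomal protein genes it was 0.10, -0.18 and 0.08 and then 0.56, 0.37 and -0.80. The median of their deviations was highest in sgControl 2 (0.26 on the log2 scale) and lowest in sgRFX6 3 (-0.22). Of the liver markers, HNF4A lay between 109 and 161 CPM and ALB between 12.9 and 32.1 CPM, whereas AFP stood at 1.58 to 2.31 CPM in sgControl and 9.98 to 17.2 CPM in sgRFX6, and TTR lay below 1 CPM. Of the 15 liver markers edgeR called 4, with AFP and AHSG higher in sgRFX6 and FGA and FGB lower. The summed level of the 15 liver markers was 464 to 548 CPM in sgControl and 379 to 398 CPM in sgRFX6. That of 7 fibroblast markers was 24.8 to 32.8 and 20.6 to 60.4 CPM, of 7 immune markers 75.6 to 158 and 70.0 to 99.6 CPM, of 4 endothelial markers 11.6 to 13.6 and 12.7 to 19.1 CPM, and of 4 neuronal markers 104 to 184 and 131 to 183 CPM. These sums were scaled without TMM factors. Each came mostly from 1 gene, LUM, CD68, PECAM1 and TUBB3 in turn. Of the 4 fibroblast markers tested, edgeR called 2, both lower in sgRFX6. They were COL1A1 (log2 fold change -2.08, edgeR adjusted p = 0.0108) and COL1A2 (-3.71, edgeR adjusted p = 0.00276). In the immune, endothelial and neuronal lists edgeR called 0 genes. The part of GC content and of these markers in the values below was not tested.

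Ribosomal protein transcripts made up a smaller part of the sgRFX6 libraries on average, but the groups overlapped. The 87 genes held 4.53%, 6.13% and 4.94% of the counts in sgControl 1, 2 and 3 and 4.18%, 4.60% and 3.70% in sgRFX6 1, 2 and 3. The means were 5.20% ± 0.831 (SD, n = 3) and 4.16% ± 0.452 (SD, n = 3), a difference of -1.04 percentage points (two-sided exact permutation test, p = 0.2, where 3 libraries against 3 allow no p below 0.1). sgRFX6 2 lay above sgControl 1, and sgControl 2 stood well above the rest. Without sgControl 2 the difference was -0.571 percentage points, and those of the 60S and 40S genes given next were -0.408 and -0.159. Counting error is small beside this spread, since the 95% Wilson interval of sgControl 1 ran from 4.516% to 4.534%.

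By subunit, the 60S genes held 2.90%, 3.98% and 3.14% of the counts in sgControl and 2.62%, 2.85% and 2.36% in sgRFX6, where every sgRFX6 library lay below every sgControl library (difference -0.726 percentage points, exact permutation test, p = 0.1). The 40S genes held 1.59%, 2.12% and 1.77% and then 1.53%, 1.72% and 1.31%, with overlap (difference -0.307, exact permutation test, p = 0.2). The small subunit took 35.4%, 34.8% and 36.0% of the subunit counts in sgControl and 36.9%, 37.7% and 35.6% in sgRFX6. This difference of 1.29 percentage points (exact permutation test, p = 0.2) turned to -0.108 (exact permutation test, p = 0.9) without the 5 most abundant genes (RPS2, RPL8, RPLP0, RPL13A and RPL7A), so its sign rested on those genes.

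The ribosomal proteins of the mitochondrion, which are made from nuclear genes for a separate ribosome, showed nearly equal group means. The 78 MRPL and MRPS genes held 0.460%, 0.448% and 0.491% of the counts in sgControl and 0.458%, 0.523% and 0.447% in sgRFX6 (difference 0.00985 percentage points, exact permutation test, p = 0.9). The log2 ratio of cytosolic to mitochondrial ribosomal protein counts was 3.30, 3.77 and 3.33 in sgControl and 3.19, 3.14 and 3.05 in sgRFX6, a difference of -0.34 without overlap (exact permutation test, p = 0.1, adjusted over 3 ratios to 0.3). Without sgControl 2 it was -0.19. The ratios to other lists described below showed overlap of the groups. Against the list of translation factors the difference was -0.0682 (exact permutation test, p = 0.7). Against the factors that assemble the ribosome it was -0.239 (exact permutation test, p = 0.6), and -0.00191 without sgControl 2.

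**Figure D1:**
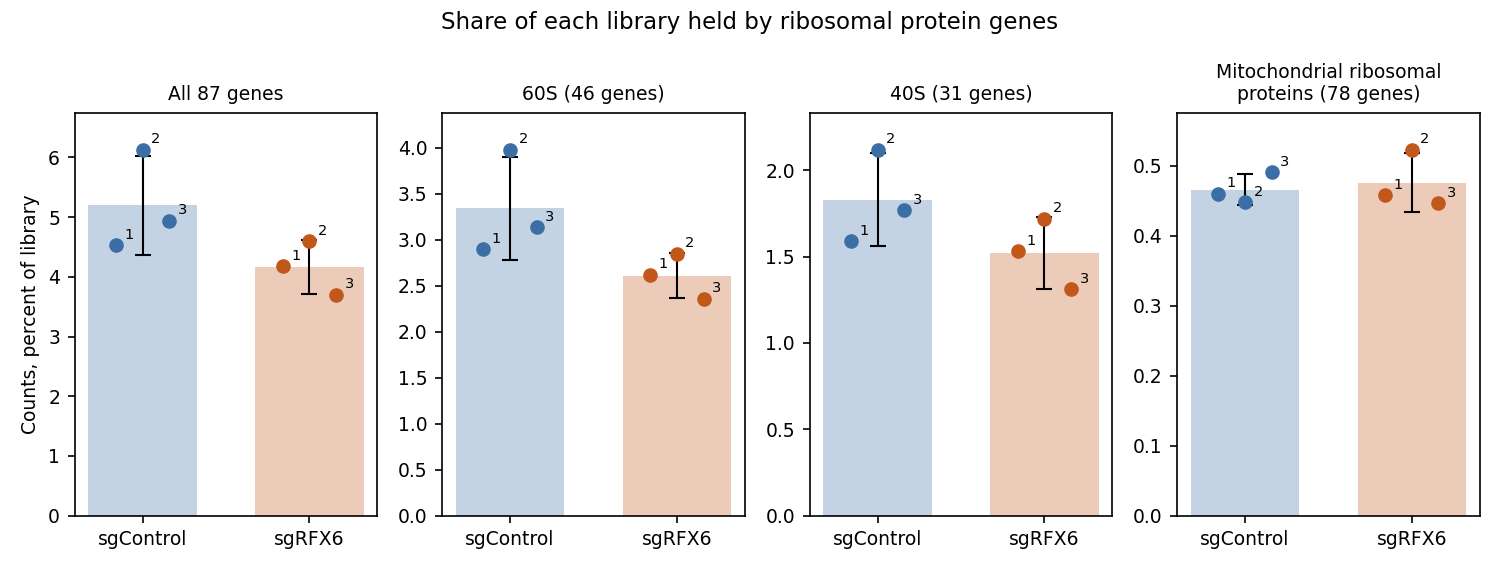
Percent of each library's counts (y axis) held by all 87 cytosolic ribosomal protein genes, the 60S genes, the 40S genes and 78 mitochondrial ribosomal protein genes, in sgControl and sgRFX6 (points, libraries with their replicate numbers; bars, mean; error bars, SD, n = 3). The 60S points of sgRFX6 (2.36% to 2.85%) lie below those of sgControl (2.90% to 3.98%), whereas the groups overlap in the other panels.

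Gene by gene, most ribosomal protein transcripts were lower in sgRFX6 by a small amount, and no single gene passed the test. The filter of low counts kept 85 of the 87 genes. None of the 85 had an adjusted p under 0.05 (edgeR's quasi-likelihood test with Benjamini-Hochberg adjustment over 12839 genes), where 3.74% of all tested genes did (1.81% lower and 1.92% higher). At an unadjusted p under 0.05 there were 7 of 85 (8.24%), all with lower levels, where 15.6% of all tested genes passed. DESeq2 called 0 as well, against 6.44% of all genes it tested. So did edgeR with offsets for transcript length (3.89% of all tested genes called) or GC content (10.4%), with the replicate number as a block (5.05%), with block and GC offset (7.13%) and without sgRFX6 2 (2.35%). Limma-voom with sample quality weights called 14 of 85 (16.5%), 13 lower and RPS3 higher, but it called 31.1% of all tested genes.

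The direction of these small differences was lopsided. The log2 fold change was below 0 in 77 of the 85 genes (90.6%), against 47.3% of all tested genes, and its median was -0.29 against 0.02. It ranged from -0.67 for RPS18 to 0.54 for RPL39, with standard errors of 0.149 to 1.11 and a median of 0.227. In 22 genes (25.9%) every sgRFX6 library lay below every sgControl library, where 11.2% of all tested genes did so. In 0 genes did every sgRFX6 library lie above, against 12% of all tested genes. The size of this shift depended on sgControl 2 and sgRFX6 3, since the median was -0.19 without sgControl 2 (66 of 85 genes below 0) and -0.18 without sgRFX6 3 (69 of 85 below 0). Of 40 genes named by rule, 20 kept their sign but came more than 1.5 times closer to 0 without sgControl 2, and 8 did so without sgRFX6 3.

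**Figure D2:**
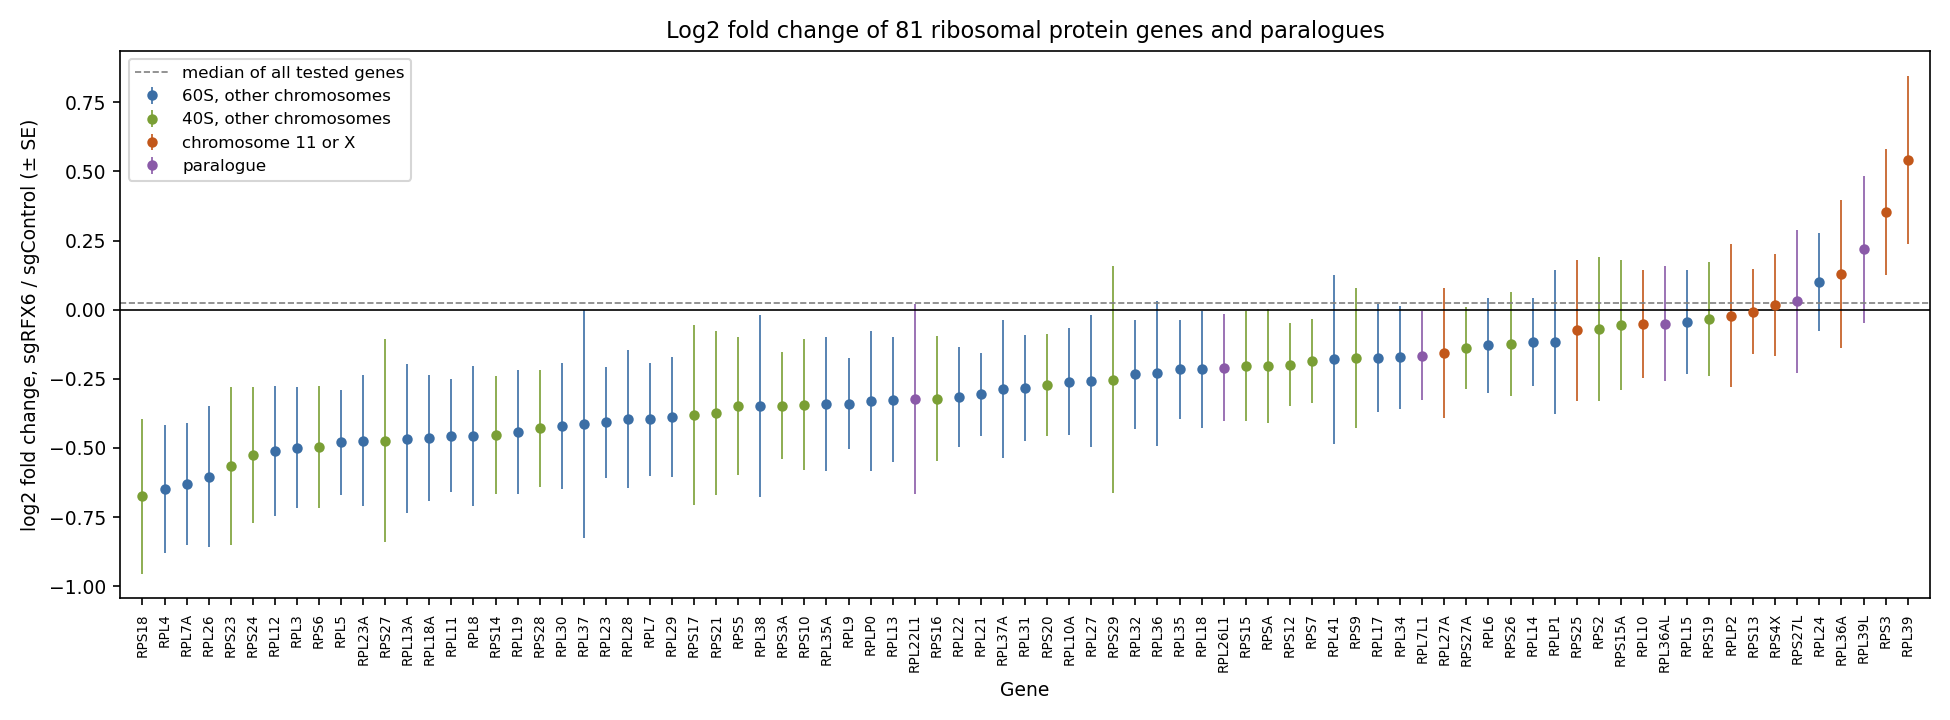
Log2 fold change, sgRFX6 over sgControl (y axis), of 81 ribosomal protein genes and paralogues ordered from RPS18 to RPL39 (x axis; points, edgeR estimates; bars, standard error; read-through identifiers and some other genes not shown). Most points lie below the dashed median of all tested genes (0.02), and those of chromosomes 11 and X (orange) gather at the upper end.

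Within the large subunit, 43 of 46 genes had a log2 fold change below 0, with a median of -0.32, and 15 (32.6%) were lower without overlap, where 47.3% and 11.2% of all tested genes were so. RPL7A (eL8), a protein of the subunit's surface, was counted at 1415, 2011 and 1580 CPM in sgControl and 1211, 1182 and 845 CPM in sgRFX6. All its sgRFX6 libraries lay below all its sgControl libraries, at a log2 fold change of -0.63 (SE 0.221, 95% interval -1.13 to -0.13, adjusted p = 0.193 from edgeR). RPL4 (uL4), which reaches into the tunnel through which the new peptide leaves, stood at 1139, 1817 and 1152 CPM and then 991, 831 and 798 CPM. Its log2 fold change was -0.65 (SE 0.231, 95% interval -1.17 to -0.13, adjusted p = 0.197 from edgeR), and its groups did not overlap. It was -0.39 without sgControl 2. Unlike RPL7A, whose listed start opens with a tract of 16 pyrimidines, RPL4 carried no TOP tract at its listed start. Only the base of that start was searched, and a C with a run of pyrimidines stands a few bases further on. Whether transcripts begin there was not tested.

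RPL3 (uL3), which lies close to the peptidyl transferase centre, had a log2 fold change of -0.50 (SE 0.219, adjusted p = 0.319 from edgeR), also without overlap. RPL12 (uL11), at the base of the stalk, had one of -0.51 (SE 0.235, adjusted p = 0.351 from edgeR). Without sgControl 2 they were -0.29 and -0.23. Both lie among the 10 genes with the smallest p-values, and the intervals reached -0.001 for RPL3 and 0.02 for RPL12. RPL8 (uL2), the most abundant 60S transcript, had a log2 fold change of -0.46 (SE 0.252), and RPL13A, another of the 5 most abundant, one of -0.47 (SE 0.269). RPL8 stood at -0.23 without sgRFX6 3, and RPL13A at -0.20 without sgControl 2 and -0.30 without sgRFX6 3.

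RPL5 and RPL11 form, with 5S ribosomal RNA, the particle that binds MDM2 and holds it off p53 when ribosome assembly is disturbed. RPL5 stood at 364, 502 and 341 CPM in sgControl and 295, 273 and 297 CPM in sgRFX6. RPL11 stood at 352, 565 and 404 CPM and then 305, 337 and 321 CPM. In both, the sgRFX6 libraries lay close together and below every sgControl library, at log2 fold changes of -0.48 (SE 0.190, adjusted p = 0.257) and -0.46 (SE 0.204, adjusted p = 0.330, both from edgeR). Without sgControl 2 they were -0.29 and -0.24.

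The genes of the exit tunnel and its rim varied more. In 8 of 9 the log2 fold change was below 0, with a median of -0.35. RPL26 (uL24), which sits at the tunnel's mouth, was counted at 473, 913 and 537 CPM in sgControl and 401, 414 and 451 CPM in sgRFX6, without overlap (log2 fold change -0.60, SE 0.254, adjusted p = 0.291 from edgeR). It was -0.26 without sgControl 2. RPL17 (-0.17), RPL19 (-0.44), RPL23A (-0.47), RPL31 (-0.28), RPL35 (-0.22) and RPL38 (-0.35) lay between RPL26 and RPL39, the 1 gene of this group above 0. Without sgControl 2, RPL19 stood at -0.22, RPL31 at -0.14 and RPL38 at -0.027. RPL23A was counted at 6.31 to 10.5 CPM only, far less than the other tunnel genes, and reads shared with near-identical copies elsewhere in the genome could bear on its count, as on those of other ribosomal protein genes, many of which have processed pseudogenes.

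The stalk, which recruits the elongation factors, is made of RPLP0 and of copies of RPLP1 and RPLP2. RPLP0 stood at 2271, 3708 and 2578 CPM in sgControl and 2482, 2576 and 1754 CPM in sgRFX6, a log2 fold change of -0.33 (SE 0.253, adjusted p = 0.616 from edgeR). RPLP1 had one of -0.12 (SE 0.260) and RPLP2 one of -0.02 (SE 0.258). The groups overlapped in all 3 genes. Without sgControl 2 RPLP0 stood at -0.097, and without sgRFX6 3 at -0.17.

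Within the small subunit, 29 of 31 genes had a log2 fold change below 0, with a median of -0.27, and 6 (19.4%) were lower without overlap, where 47.3% and 11.2% of all tested genes were so. RPS18 (uS13), which lies in the head of the subunit, had the lowest value of all 85 genes. It was counted at 433, 904 and 580 CPM in sgControl and 380, 487 and 335 CPM in sgRFX6, a log2 fold change of -0.67 (SE 0.280, 95% interval -1.31 to -0.04, adjusted p = 0.286 from edgeR). sgRFX6 2 lay above sgControl 1, and sgControl 2 stood far above both others. Without sgControl 2 the value was -0.34.

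RPS6 (eS6), which the S6 kinases phosphorylate downstream of mTORC1, showed no overlap of the groups, at a log2 fold change of -0.50 (SE 0.220, adjusted p = 0.325 from edgeR). It was -0.22 without sgControl 2.

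The genes at the mRNA entry and decoding sites spread over nearly the whole range. RPS23 (uS12) had a log2 fold change of -0.56 (SE 0.285, and -0.25 without sgControl 2), RPS15 (uS19) one of -0.21 (SE 0.199) and RPS2 (uS5), the most abundant transcript of all 87, one of -0.07 (SE 0.260). RPS3 (uS3), which lines the mRNA entry channel and also acts in DNA repair, was counted at 240, 359 and 285 CPM in sgControl and 385, 459 and 286 CPM in sgRFX6. Its log2 fold change was 0.35 (SE 0.228, adjusted p = 0.533 from edgeR), and sgRFX6 3 lay within the range of sgControl. It was 0.19 without sgRFX6 2 and 0.22 without sgControl 1. RPSA, which doubles as a laminin receptor, had a value of -0.20 (SE 0.207), and RPS27A, made as a fusion with ubiquitin, one of -0.14 (SE 0.149).

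In Diamond-Blackfan anaemia, mutations in 1 of a set of ribosomal protein genes cause a failure of red cell production. All 19 genes of that set held here had a log2 fold change below 0, with a median of -0.28, and 5 (26.3%) showed no overlap, a share close to the 25.9% of all 85 ribosomal protein genes and above the 11.2% of all tested genes. Genes with a TOP start had a median of -0.30 (43 of 48 below 0), and those without one at a listed start had a median of -0.21 (18 of 20 tested). The difference between the last 2 medians was not tested.

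**Figure D3:**
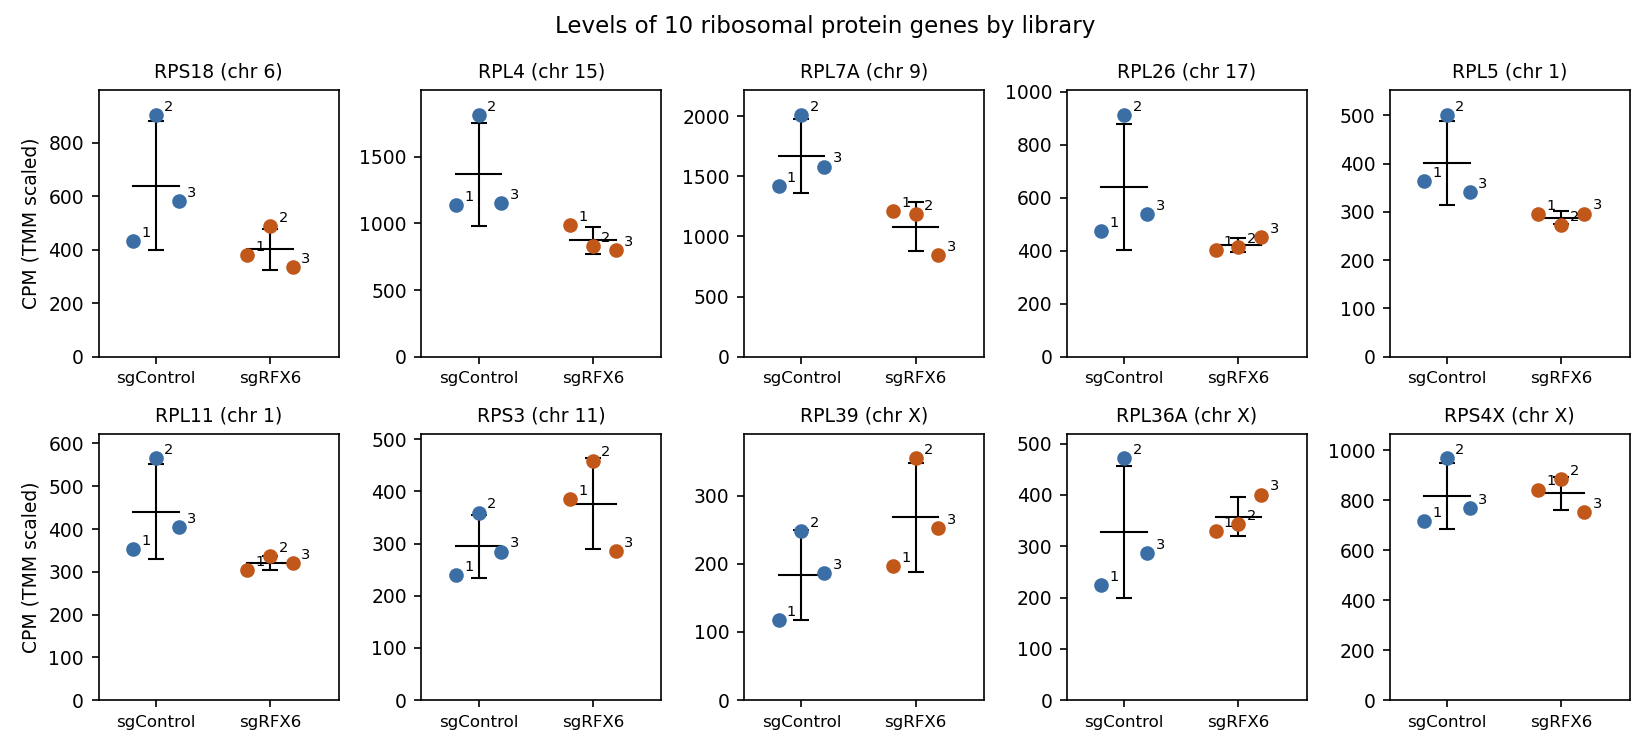
TMM-scaled CPM (y axis, from 0) of 10 ribosomal protein genes in the 6 libraries (points, libraries with their replicate numbers; horizontal lines, mean; error bars, SD, n = 3). RPL4, RPL7A, RPL26, RPL5 and RPL11 show no overlap of the groups, whereas RPS18 and the 4 genes of chromosomes 11 and X (RPS3, RPL39, RPL36A and RPS4X) do.

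The ribosomal protein genes of chromosomes 11 and X lay above the others. They were grouped in this way after their values had been seen. Of 10 such genes, 5 had a log2 fold change below 0, and their median was 0.005 (between -0.16 and 0.54). Of the 75 on other chromosomes, 72 were below 0 with a median of -0.33, and all 22 genes without overlap lay there. The other genes of both chromosomes were also shifted upwards in sgRFX6, with a median log2 fold change of 0.38 over 694 genes on chromosome 11 and 0.29 over 403 genes on chromosome X. The 2 groups of libraries differ by clone as well as by RFX6, and the number of gene copies was not measured.

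RPL39 (eL39), a small protein that lines the exit tunnel, lies at chrX:119786504-119791643. It was counted at 117, 248 and 187 CPM in sgControl and 196, 355 and 252 CPM in sgRFX6, a log2 fold change of 0.54 (SE 0.304, 95% interval -0.15 to 1.23, adjusted p = 0.457 from edgeR). sgRFX6 1 overlapped the range of sgControl, and sgRFX6 2 and 3 lay above it. The value was 0.29 without sgRFX6 2, 0.30 without sgControl 1 and 0.82 without sgControl 2. The median over the 50 tested genes nearest to it was 0.72. RPL36A (eL42), at chrX:101390824-101396154, stood at 224, 472 and 287 CPM and then 329, 344 and 401 CPM (log2 fold change 0.13, SE 0.267), within a neighbourhood of median 0.68. Reads of RPL36A can overlap the read-through RPL36A-HNRNPH2, which held 9 to 29 counts a library.

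RPS3, at chr11:75399486-75422280, lay at the median of its neighbours (0.36). RPS4X, at chrX:72255679-72277300, a ribosomal protein gene with counterparts on the Y chromosome, had a log2 fold change of 0.02 (SE 0.185) among neighbours of median 0.29. RPL10 (uL16), which joins the 60S subunit late in its assembly, had one of -0.05 (SE 0.195) among neighbours of median 0.30. RPL24, on chromosome 3 and chosen after its value was seen, as was RPS4X, had one of 0.10 (SE 0.177) in a neighbourhood of median 0.53.

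Across the 85 genes, the log2 fold change went with that of the surrounding 50 tested genes, taken as their median (Spearman 0.60, Pearson 0.72, a description over genes measured in the same 6 libraries). It went less with mean log2 CPM (Spearman -0.25), transcript length (-0.07) or GC content (-0.05). Measured against their own neighbours, the genes of chromosomes 11 and X had values close to the rest. After the neighbours' median was subtracted, 10 of 10 were below 0 with a median of -0.39, and 73 of the 75 others were below 0 with a median of -0.32. When the regional median was removed within the edgeR fit, 83 of 85 genes had a log2 fold change below 0, RPS3 had one of -0.01, RPL36A one of -0.55 and RPL39 one of -0.18. In that fit the median was -0.33 over the 85 genes and 0.007 over all tested genes. The share of all tested genes below 0 on these scales is not given here.

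**Figure D4:**
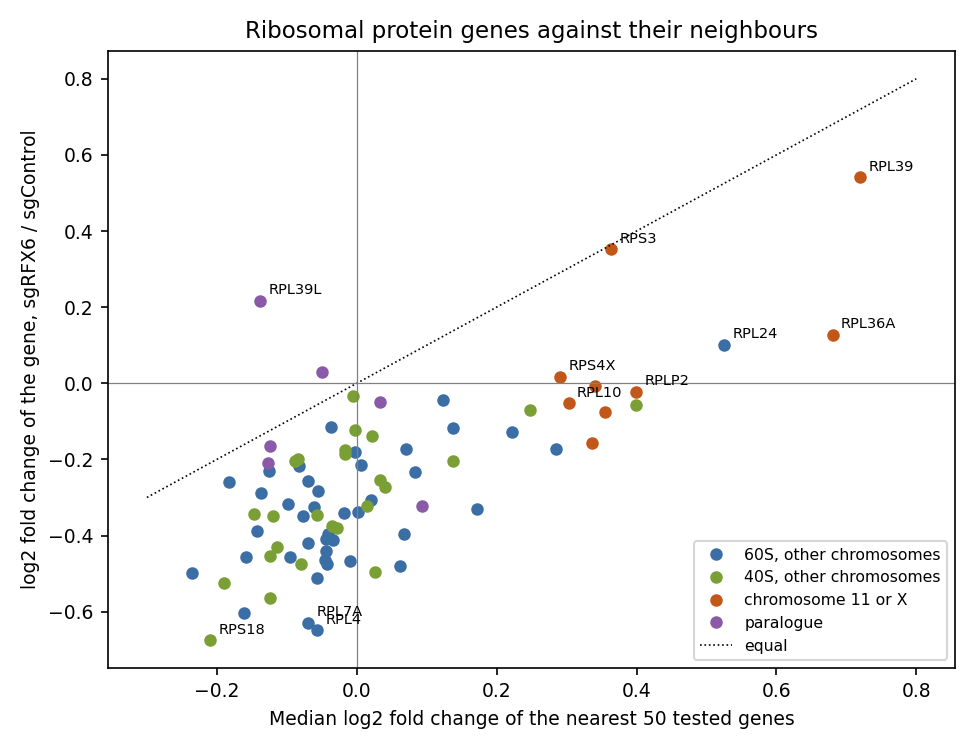
Log2 fold change, sgRFX6 over sgControl, of each ribosomal protein gene or paralogue (y axis) against that of its neighbourhood, as the median over the nearest 50 tested genes on its chromosome (x axis), with a dotted line where both are equal. Nearly all points lie below the line, and the genes of chromosomes 11 and X (orange) lie to the right, up to RPL39 at 0.72 and 0.54.

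Relative to the median subunit gene of the same library, which removes a shift that all share, 8 of 77 subunit genes were higher in sgRFX6 without overlap and 2 were lower. The background on this scale is lopsided, since 26.6% of all tested genes were higher and 4.33% lower. The subunit genes are centred on this reference by construction, and their median log2 fold change was -0.32. These shares of all tested genes are therefore not a like background for the subunit genes. The 8 were RPL10, RPL15, RPL24, RPL39, RPS13, RPS15A, RPS3 and RPS4X, of which 5 lie on chromosomes 11 and X, and the 2 were RPL3 and RPL7A. These genes are listed because the count is small, whatever the rule for named genes.

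The paralogues were scarce beside their parent genes. RPL3L, which replaces RPL3 in muscle, was counted 1, 5 and 2 times in sgControl and 2, 5 and 0 times in sgRFX6 and did not pass the filter, so no fold change is given. RPL17-C18orf32, at 0 to 12 counts, did not pass either. Of the 6 paralogues tested, 4 had a log2 fold change below 0, with a median of -0.11.

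Of the counts of each pair, RPL39L, a form of RPL39 known from testis and from tumour cells, took 14.8%, 8.46% and 11.8% in sgControl and 11%, 9.24% and 7.04% in sgRFX6. RPL22L1 took 3.24%, 1.18% and 2.95% of the counts it shared with RPL22 and then 1.80%, 2.59% and 2.51%. RPS27L, a target of p53, took 4.29%, 2.78% and 3.58% with RPS27 and then 5.17%, 3.40% and 6.57%. The groups overlapped in all 7 pairs. Differences were -2.61 percentage points for RPL39L, -0.159 for RPL22L1, 1.49 for RPS27L, 2.09 for RPL7L1, 0.753 for RPL26L1, -2.17 for RPL36AL and 0.00538 for RPL3L, with exact permutation p-values of 0.3 to 0.8 (0.56 to 0.8 adjusted over the 7 pairs). Without single libraries the difference for RPL22L1 lay between -0.799 and 0.234 and that for RPL3L between -0.00273 and 0.0118, so neither had a stable direction. The other 5 kept their sign but not their size, with ranges of 0.299 to 3.11 for RPL7L1, 0.2 to 1.14 for RPL26L1, -4.08 to -0.552 for RPL36AL, -4.22 to -1.05 for RPL39L and 0.732 to 2.32 for RPS27L. The smallest came without sgControl 2 for RPL7L1 and RPL26L1, without sgControl 1 for RPL36AL and RPL39L, and without sgRFX6 3 for RPS27L.

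Levels per kilobase of transcript were uneven across proteins that the ribosome mostly holds in equal number. The median over the 60S genes was 746 CPM per kilobase and over the 40S genes 539 CPM per kilobase. RPS2 (4020) and RPL8 (3220) were highest, whereas RPL23A (13.6), RPS29 (51.2) and RPS10 (52.5) were low on the same scale of CPM per kilobase. RPL22L1 stood at 11.8 and RPL3L at 0.0907. RPS29 and RPS10 were chosen after their values were seen, and reads of RPS10 can overlap the read-through RPS10-NUDT3 (0 to 39 counts a library). The annotation used for length is not stated to be the one used for counting.

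Of the ribosomal genes with other names, RACK1, a scaffold on the 40S head, was counted at 733, 938 and 824 CPM in sgControl and 589, 685 and 439 CPM in sgRFX6, without overlap (log2 fold change -0.54, adjusted p = 0.244 from edgeR). FAU, on chromosome 11, which carries eS30, had a value of 0.20.

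A list of translation factors and some other genes (such as IPO5, NAP1L1 and HNRNPA1), taken as having TOP mRNAs, had values similar in sign. The start sites of these genes were not looked at singly here. In 18 of 20 the log2 fold change was below 0, with a median of -0.21, against 47.3% of all tested genes below 0. In edgeR's test 0 passed, and 3 were lower without overlap, near the 11.2% of all tested genes. As a list, they held 1.77%, 2.29% and 1.75% of the counts in sgControl and 1.64%, 1.5% and 1.73% in sgRFX6, without overlap (difference -0.314 percentage points, and -0.137 without sgControl 2, exact permutation test over all 6 libraries, p = 0.1). Factors that assemble the ribosome were centred near 0, with 24 of 45 below 0 and a median of -0.02, and so were 14 genes of RNA polymerase I and its factors (median -0.02) and the 78 mitochondrial ribosomal proteins (37 below 0, median 0.01). In each of these lists edgeR called 0 genes. Of 13 genes listed as hosts of small nucleolar RNAs, 0 were found by name among the 16720 genes, so they were not analysed.

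Among 23 regulators of ribosomal protein synthesis, 1 passed the test, a share near the 3.74% of all tested genes. MYCN, a member of the MYC family that drives growth genes, fell from 7.08, 7.85 and 8.41 CPM in sgControl to 0.695, 1.38 and 0.772 CPM in sgRFX6, a log2 fold change of -3.05 (SE 0.345, adjusted p = 0.00261 from edgeR). MYC itself, at 510 to 579 CPM in sgControl, had a value of -0.39 (SE 0.171, edgeR adjusted p = 0.322), with every sgRFX6 library below every sgControl library. RHEB, which activates mTORC1, had a value of 0.48 (SE 0.158, edgeR adjusted p = 0.161), with every sgRFX6 library above. RHEB lies on chromosome 7, whose 582 tested genes had a median of 0.37, and the 50 genes nearest to it had one of 0.40. For MYC and MYCN the medians of the nearest 50 genes were 0.01 and 0.02. MYC and RHEB were chosen after their values were seen. The list as a whole had a median of -0.08, with 14 of 23 below 0.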

How the data were processed

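Trizol RNA of Hep3B cells was sequenced on an Illumina platform. The deposited file is 1 table of raw counts made by the authors per gene for 6 libraries (GRCh38/hg38 per the submitters' processing notes), and the aligner, the counting program, its use of strand and the annotation are not given in the sources used here. Control columns are named cas and were taken as sgControl, the only control group. A row without a gene name (12 to 23 counts a library) was left out.

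The program edgeR 4.0.16 (R 4.3.3) was run on the counts after filterByExpr (minimum count 10, minimum total 15) and TMM scaling. Its quasi-likelihood test set sgRFX6 against sgControl in 12839 genes, with Benjamini-Hochberg adjustment over all of these and a threshold of 0.05. The spread between libraries of a group corresponded to a common coefficient of variation of 0.269. Shares and pairs were compared with two-sided exact permutation tests. Within a group, libraries differed by 17 to 124 chi-square units per degree of freedom, so none was a copy of another. Wilson intervals and the limit of 3 counts cover counting error only, since PCR copies are not independent molecules.

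Positions, transcript lengths (the median of a gene's protein-coding transcripts) and GC content came from GENCODE 29 on GRCh38, and 15422 row names matched by name, 257 by another symbol and 1042 not at all. Promoters came from RefSeq. The genes and lists were chosen with earlier results of these data known. Genes named are those with the 10 smallest p-values, the 10 highest mean CPM, the paralogue pairs, the role groups, those not past the filter and the highest and lowest fold changes. Others are said to be chosen after their values were seen, and single values of a few genes are withheld from the text, although counts over the lists include them. Alternative settings were DESeq2 1.42.0, limma-voom (limma 3.58.1), RLE factors or no factors, other filters, offsets for GC content, transcript length (both as smooth trends of span 0.3) or the median of the nearest 50 genes, the replicate number as a block, and each library left out in turn. The comparisons relative to other subunit genes, by chromosome and by ratio to other lists, and shares of other lists without single libraries, were added after seeing the data.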

Additional observations from a re-analysis of the deposited data

How the results depend on the processing

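The 0 genes called stayed at 0 under RLE factors, library size only, DESeq2, other filters, the 3 offsets and without each library, and limma-voom called 14. The median log2 fold change kept its sign throughout, between -0.42 and -0.18 without single libraries. The share of counts differed by -1.37 to -0.571 percentage points without single libraries, and the small subunit share by 0.822 to 1.85, but by -0.108 without the 5 most abundant genes. The replicate numbers did not pair the libraries (correlations of same-numbered deviations -0.406, 0.174 and -0.087). Higher correlations joined sgControl 1 to sgRFX6 3 (0.565), sgControl 2 to sgRFX6 1 (0.436) and sgControl 3 to sgRFX6 2 (0.283). No block was fitted for these pairs, and what they might share was not tested. With the replicate number as a block the median was -0.30 and 0 genes were called (-0.29 and 0 with the GC offset added). That block called 648 of all tested genes in place of 480. All tested genes called numbered 3998 with limma-voom, 1336 with the GC offset, 915 with the block and that offset, and 908 with DESeq2.

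Of 680 values for 40 named genes, 644 kept their direction and side of the threshold, 10 passed it under limma-voom and 26, in 11 genes, changed sign. Under limma-voom RPS2 had a log2 fold change of 0.15, RPL10 of 0.0399 and RPS27L of -0.19. With the GC offset RPS27L had one of -0.0266 and RPLP2 one of 0.0248 (0.0101 with the block), and with a filter of 1 CPM RPLP2 had one of 0.0038. With the regional offset RPS3 had one of -0.0103, RPL36A of -0.55 and RPL39 of -0.18. Without single libraries, log2 fold changes ran from -0.25 to 0.15 for RPS2, -0.17 to 0.0833 for RPL10, -0.14 to 0.11 for RPL36AL, -0.0845 to 0.48 for RPL36A, -0.0712 to 0.41 for RPL39L, -0.15 to 0.16 for RPS27L, -0.43 to 0.11 for RPLP1, -0.32 to 0.18 for RPLP2 and -0.28 to 0.009 for RPL17, and the differences in pair shares from -0.799 to 0.234 for RPL22L1 and -0.00273 to 0.0118 for RPL3L. The causes were not tested. MYCN passed the threshold under every alternative. With 3 libraries a group the exact tests cannot go below 0.1, and 3 counts (0.121 to 0.188 CPM) limit RPL3L and the read-through identifiers.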
